A study of Mus musculus with 25 samples.

Results

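Expression of mesothelial cell genes and of stromal position factors was followed in a mouse model of Ras-driven liver tumours. The 10 genes were taken by symbol from the 24984 genes of the raw count table, 5 of them genes of mesothelial cells (Msln, Upk3b, Upk1b, Gpm6a and Lrrn4) and 5 of them transcription factors that mark the position or origin of stromal cells (Wt1, Tcf21, Gata4, Lhx2 and Tbx18). The rule names the genes and uses no measured value, but it was written with earlier results of these data known. All 10 were found, and each was followed through 25 RNA sequencing libraries in 7 groups.

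BMEL cells are bipotential hepatic progenitors derived as a line from embryonic liver of C57BL/6xC3H mice (spelled C57B/6_C3H in the labels). They were carried in culture as 3 libraries of cells with an empty vector (BMEL WT). RasLOW and RasHIGH, 3 libraries each, were cells with a low and with a high level of the HRasG12V oncogene. The Ras cells had been transduced with lentiviral vectors that also encode a fluorescent protein and had been sorted by its brightness, so both are sorted pools that overlap in oncogene level. BMEL cells carrying the oncogene were injected into the liver of athymic nude mice, which lack mature T cells. From each of 4 mice the tumour in the liver and the tumour in the peritoneum were dissociated and sorted by fluorescence into tumour cells and stromal cells, giving 4 libraries in each of 4 groups. The labels do not say which of the Ras populations each of these mice had received, nor give the age of the mice. Tumour cells and stroma of both sites therefore share a host without T cells, and all tumour cells carry the oncogene. Libraries held between 20818989 and 51241336 counts. Levels are given as CPM, read counts scaled to the size of the library with TMM factors over all 25 libraries, ± SD with n = 3 cultures or n = 4 mice, and 3 counts, the limit that a count of 0 allows, stood for 0.0576 to 0.141 CPM depending on the library (counting error only). The paper calls the samples of the cell lines independent, while the labels do not say how the 3 cultures of a group were grown. Their p-values measure the spread between these libraries.

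The mesothelium is the single layer of flat epithelial-like cells that covers the liver, the gut and the wall of the peritoneal cavity and that lines the surface on which peritoneal tumours grow. Mesothelial cells carry mesothelin (Msln) and uroplakins on their surface and express the zinc finger factor Wt1, and in the embryo they give rise to part of the mesenchyme under them, including hepatic stellate cells. Stromal cells keep part of the transcription factor code of the organ in which they formed: Gata4, Lhx2 and Tcf21 are known from liver mesenchyme, Gata4 also from the endothelium of the liver sinusoids, and Tbx18 from mesenchyme of body wall, heart and urinary tract.

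Of the 10 genes, 6 had a promoter in the RefSeq table used here (8 starts, build GRCm38.p6), namely Upk3b, Gpm6a, Lrrn4, Tcf21, Lhx2 and Tbx18. Each 300-base window matched the mm9 genome once. The first 3 sequences belong to mesothelial genes that varied together in stroma, and the last to the factor that was higher in peritoneal stroma. They are shown from base -150 to base -31 before the RefSeq start, 5′ to 3′ on the strand of the gene, and hold no annotated exon of mm9. For Gpm6a the start shown is the one that coincides with the start of the gene in GENCODE vM1. Capitals mark matches, on either strand, to 4 short motifs: GATAA (GATA factors), GTGGGNG (WT1 zinc fingers), GGTGTGA (T-box factors) and TAATTA (LIM homeodomain factors such as Lhx2).
Upk3b, chr5:136514216-136514335, plus strand: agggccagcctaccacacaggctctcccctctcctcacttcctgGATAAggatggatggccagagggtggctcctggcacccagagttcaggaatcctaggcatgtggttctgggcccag
Gpm6a, chr8:56039931-56040050, plus strand: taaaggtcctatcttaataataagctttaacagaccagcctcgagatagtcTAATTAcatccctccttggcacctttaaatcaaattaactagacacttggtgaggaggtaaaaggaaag
Lrrn4, chr2:132706629-132706748, minus strand: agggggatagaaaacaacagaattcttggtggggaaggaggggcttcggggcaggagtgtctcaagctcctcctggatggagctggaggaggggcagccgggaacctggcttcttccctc
Tbx18, chr9:87626126-87626245, minus strand: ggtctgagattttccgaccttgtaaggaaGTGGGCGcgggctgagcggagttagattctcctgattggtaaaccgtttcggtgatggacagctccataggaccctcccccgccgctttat
The GATA match of Upk3b begins at base -106 from the start. The match of Gpm6a is of the LIM homeodomain motif and begins at base -99, and that of Tbx18 is of the WT1 motif and begins at base -121. The stretch of Lrrn4 holds none of the 4, but its 300-base window holds a GTGGGNG match that begins at base -217, outside the stretch shown. Such matches are common, since 25.4% of the 32851 promoter windows in the table hold GATAA, 31.6% hold GTGGGNG, 5.29% hold TAATTA and 3.98% hold GGTGTGA. These shares are for windows of 300 bases, which are longer than the stretches shown. The E-box of Tcf21 and related factors (CANNTG, both strands) occurs in 72.3% of windows and is left in lower case. The matches describe letters only. No motif overlapped another in the 4 stretches.

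On mm9 the genes lie apart from each other, and none shares exon bases with another annotated gene of GENCODE vM1. Msln lies at chr17:25885559-25891272, Upk1b at chr16:38773297-38800316, Wt1 at chr2:104966686-105013773 and Gata4 at chr14:63817759-63890529. Upk3b lies at chr5:136514366-136521173, Gpm6a at chr8:56040081-56146231, Lrrn4 at chr2:132694041-132706627, Lhx2 at chr2:38194801-38225253, Tbx18 at chr9:87597635-87626095 and Tcf21 at chr10:22537085-22539934. The count table also lists Wt1os, an RNA from the strand opposite to Wt1, and since the strand setting of the counting is not given in the sources used here, its reads and those of Wt1 may not be fully separated. Wt1os stayed between 0.341 and 1.56 CPM in stroma, under Wt1 in each stromal group, but in RasHIGH cells it averaged 0.327 CPM, from 0.227 to 0.496 CPM, above the mean of Wt1 there (0.168 ± 0.115 CPM).

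The level of each gene in all 25 libraries splits the set into those that were mostly stromal, those shared with the BMEL line, and those near the detection limit. Compared per kilobase of exon, Msln was the most abundant of the 10 in every group, at 594 CPM per kilobase in BMEL WT, 119 in liver tumour cells, 26.7 in liver stroma and 20.1 in peritoneal stroma. Msln encodes a cell surface protein held as a marker of mesothelium, yet it was higher in all BMEL-derived libraries than in any stromal library. High Msln was therefore not particular to stroma in these samples, and which cells gave its stromal reads was not tested. Upk1b, a tetraspanin of the uroplakin family, and Upk3b were also expressed in BMEL WT cells, at 87.6 ± 27.1 and 15.2 ± 7.70 CPM, against 10.4 ± 7.64 and 14.6 ± 8.57 CPM in liver stroma. Unlike Msln, both averaged under 1 CPM in tumour cells and were higher in stroma than in tumour cells at both sites.

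**Figure D1:**
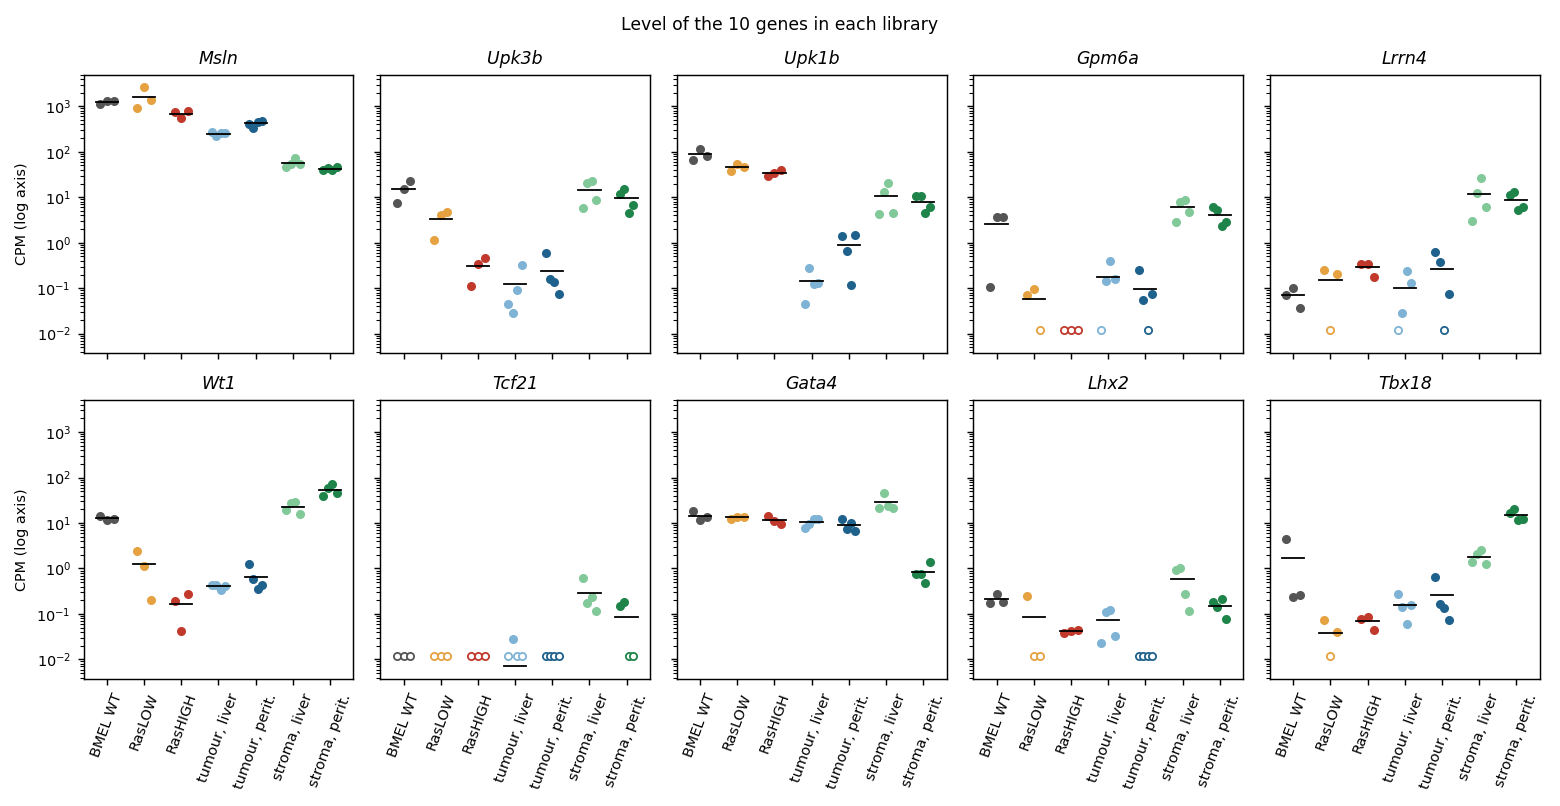
CPM (log axis) of the 10 genes in each of the 25 libraries, with 1 point per library, a black line at the group mean and open points at the bottom for libraries without a count. Msln is highest in cultured cells and lowest in stroma, Wt1 and Tbx18 are highest in peritoneal stroma, Gata4 is highest in liver stroma and lowest in peritoneal stroma, and Tcf21 and Lhx2 stay near the bottom of the axis.

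To ask whether the stroma of the 2 sites differed, liver and peritoneal stroma were compared within mice by edgeR's quasi-likelihood test with the mouse as a block. A gene was called at a Benjamini-Hochberg adjusted p under 0.05 and an absolute log2 fold change above 1. Of the position factors tested all 3 were called, and of the mesothelial genes none. Of 14755 genes tested, 3.39% were called higher in liver stroma and 10.1% higher in peritoneal stroma. Among the 10 genes, 8 had enough counts for the test, of which 1 was called higher in liver stroma (Gata4), 2 were called higher in peritoneal stroma (Wt1 and Tbx18) and 5 were not called. In such bulk libraries fewer cells of a type and less RNA per cell cannot be told apart.

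Gata4, a GATA zinc finger factor of liver mesenchyme, sinusoidal endothelium and heart, measured 21.9, 45.6, 24.2 and 21.7 CPM in liver stroma of mice 1 to 4 and 0.747, 0.750, 0.485 and 1.40 CPM in peritoneal stroma. All 4 liver libraries lay far above all 4 peritoneal ones, and mouse 2 was the highest. The log2 fold change of liver over peritoneum was 4.97 (SE 0.33, adjusted p = 1.31e-04, edgeR), and without mouse 2 it was 4.69. Within mice the ratio of liver to peritoneal CPM ran from 15.5 to 60.8. Its relative Gata6, which is also a mesothelial factor, was not called, at 27.6 ± 6.18 CPM in liver and 31.1 ± 4.80 CPM in peritoneal stroma (log2 fold change -0.23, adjusted p = 0.258, edgeR). Tumour cells held more Gata6 than stroma, at 100 ± 10.4 CPM in liver and 88.8 ± 15.3 CPM in peritoneum. The share of tumour-cell RNA in stromal Gata6 was not tested.

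Hepatocyte markers and 2 of 7 endothelial markers were also called between the stromal fractions. The 2 endothelial ones were higher in liver stroma: Stab2, a scavenger receptor of sinusoidal endothelium, was 135 ± 76.2 against 0.941 ± 0.669 CPM, and Kdr, a receptor for vascular endothelial growth factor, was 143 ± 78.7 against 54.6 ± 8.06 CPM. The other 5 were not called, and the median over the 7 was 0.28 on the log2 scale. Of these, Emcn was 18.3 ± 7.41 in liver against 29.0 ± 1.60 CPM in peritoneal stroma and Lyve1, a marker of sinusoidal and lymphatic endothelium, was 42.8 ± 17.8 against 68.8 ± 77.3 CPM. The summed endothelial markers overlapped between sites. They were 552, 1132, 671 and 639.9 CPM in liver stroma of mice 1 to 4 and between 379 and 702 CPM in peritoneal stroma. Mouse 2 had the highest sum as well as the highest Gata4. The sum includes Cdh5, which was also expressed in tumour cells, at 126 ± 68.5 CPM in liver and 140 ± 78.1 CPM in peritoneum. All 5 hepatocyte markers tested, of 8 listed (Alb, Apoa1, Apoa2, Fga and Fgb), were called higher in liver stroma, with a summed level of 44.2 to 287 CPM against 0.422 to 1.79 CPM and 2 of the 8 at 0 in all peritoneal libraries. The part of these cells in the Gata4 difference was not tested.

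Wt1, the Wilms tumour zinc finger factor of mesothelium and its mesenchymal descendants, measured 19.0, 28.0, 28.8 and 15.7 CPM in liver stroma and 40.1, 59.5, 70.7 and 45.3 CPM in peritoneal stroma of mice 1 to 4. Every peritoneal library was above every liver library, and the ratio of liver to peritoneum within a mouse stayed between 0.347 and 0.474. The log2 fold change was -1.29 (SE 0.098, adjusted p = 2.28e-04, edgeR). Mice 2 and 3 had the highest values at both sites.

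Tbx18, a T-box factor of body wall and epicardial mesenchyme, measured 1.39, 2.07, 2.53 and 1.23 CPM in liver stroma and 17.0, 20.3, 11.6 and 12.6 CPM in peritoneal stroma. The groups did not overlap, and the liver value of a mouse was between 0.0819 and 0.218 of its peritoneal value. The log2 fold change was -3.15 (SE 0.26, adjusted p = 3.08e-04, edgeR). Wt1, Gata4 and Tbx18 kept their direction and call in all 10 alternatives tried for this comparison. For mice 1, 3 and 4, whose 2 stromal libraries shared a sequencing lane by their labels, the log2 fold changes were -1.35 for Wt1, 4.69 for Gata4 and -3.08 for Tbx18.

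Lhx2 and Tcf21 had too few counts for the test. Lhx2, a LIM homeodomain factor of hepatic stellate cells, measured 0.919, 1.02, 0.273 and 0.119 CPM in liver stroma and 0.187, 0.141, 0.208 and 0.0776 CPM in peritoneal stroma. It was higher in the liver library of all 4 mice, but the groups overlapped and no library held more than 35 counts. Tcf21, a basic helix-loop-helix factor of visceral mesenchyme, measured 0.604, 0.175, 0.239 and 0.119 CPM in liver stroma and 0.149, 0.187, 0 and 0 CPM in peritoneal stroma, and these groups overlapped too. No site difference in either gene could be tested at this depth.

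None of the mesothelial genes was called between the sites, and all but Msln varied widely between mice. Upk3b, a uroplakin of mesothelium and urothelium, measured 5.77, 20.8, 23.1 and 8.89 CPM in liver stroma of mice 1 to 4 and 11.6, 14.9, 4.47 and 6.67 CPM in peritoneal stroma. The groups overlapped, with the liver value above the peritoneal one in 3 of 4 mice and below it in mouse 1, and the log2 fold change was 0.50 (SE 0.50, adjusted p = 0.475, edgeR). Lrrn4, a leucine-rich repeat membrane protein, measured 2.97, 12.5, 26.3 and 6.23 CPM in liver stroma and 11.2, 13.2, 5.16 and 6.13 CPM in peritoneal stroma, again overlapping (0.04, SE 0.64, adjusted p = 0.966, edgeR).

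Upk1b measured 4.20, 12.9, 20.2 and 4.48 CPM in liver stroma and 10.4, 10.6, 4.50 and 6.09 CPM in peritoneal stroma. Its log2 fold change was 0.11 (SE 0.54, adjusted p = 0.893, edgeR), with 2 mice on each side. Gpm6a, a membrane glycoprotein of neurons and mesothelium, measured 2.81, 7.89, 8.54 and 4.84 CPM in liver stroma and 6.16, 5.30, 2.36 and 2.79 CPM in peritoneal stroma (0.48, SE 0.46, adjusted p = 0.452, edgeR). In all 4 genes mouse 3 had the highest liver value and the lowest peritoneal value, whereas mouse 1 had the lowest liver value. Without mouse 3 the log2 fold changes were -0.088 for Upk3b, -0.54 for Upk1b, 0.02 for Gpm6a and -0.69 for Lrrn4, so the sign of 3 of them rested on that mouse. Without mouse 1 they were 0.99, 0.61, 0.99 and 0.68, and the adjusted p of Gpm6a was 0.0351 with the fold change still under the threshold.

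**Figure D2:**
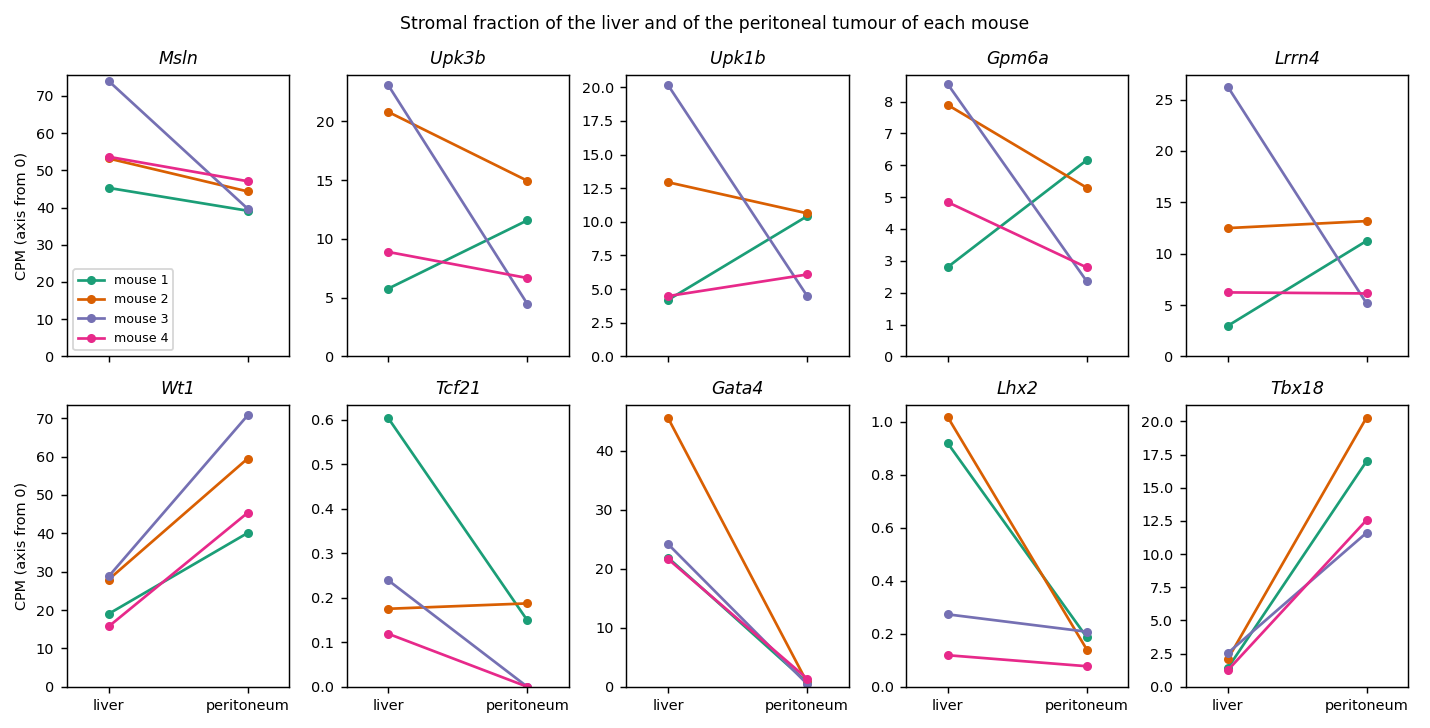
CPM (linear axis from 0, its own range for each gene) in the stromal fraction of the liver and of the peritoneal tumour, with a line joining the 2 libraries of each of the 4 mice. Lines of Gata4 and Lhx2 fall from liver to peritoneum in all 4 mice and those of Wt1 and Tbx18 rise in all 4, whereas the lines of Upk3b, Upk1b, Gpm6a and Lrrn4 cross, with mouse 3 falling and mouse 1 rising.

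Upk3b, Upk1b, Gpm6a and Lrrn4 varied together across the 8 stromal libraries: over the 6 pairs of these genes Pearson's r of log2(CPM + 1) lay between 0.873 and 0.965, while the 4 pairs with Msln lay between 0.562 and 0.641. The libraries share 4 mice, and r is given as a description. Outside the lists, among 13438 genes with a mean of at least 1 CPM in stroma, the genes most like Upk3b over these 8 libraries were Pkhd1l1 (r = 0.975), Pcnx2 (0.968) and Rpusd4 (0.965). Those most like Wt1 were Gpr180 (0.988), Klhl29 (0.986) and Echdc2 (0.984), and those most like Lhx2 were Ifi213 (0.968), Serpina1b (0.963) and Nmrk1 (0.959), the last over a gene with few counts. All are the highest values of a search over 13438 genes. Wt1 did not overlap between the sites, and r over both sites does not separate a shared site difference from likeness within a site.

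Msln behaved apart from the other mesothelial genes. It measured 45.3, 53.2, 74.0 and 53.6 CPM in liver stroma and 39.1, 44.3, 39.7 and 47.1 CPM in peritoneal stroma. The liver library was the higher in all 4 mice, although the groups overlapped by 1 library, and the log2 fold change of 0.34 (SE 0.13, adjusted p = 0.0831, edgeR) was not called. With total counts alone, a scaling that moved the median of all genes in this comparison by 0.12 on the log2 scale, the adjusted p of Msln was 0.0335 and the fold change stayed under the threshold.

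Stromal libraries also held transcripts of epithelial markers. Stromal Msln amounted to 16.8% to 28.1% of the level in tumour cells of the same liver tumour and to 8.58% to 13.0% in the peritoneal tumour. Krt8, a keratin of simple epithelia that BMEL-derived cells express, amounted to 12.8% to 15.2% and to 6.05% to 11.2% in the same libraries. Krt19, a keratin of biliary cells and progenitors, gave 12.9% to 14.8% and 5.77% to 7.84%. Cdh1, the epithelial cadherin, stood above Msln at 34.1% to 43.9% and 17.0% to 36.0%. Krt7 and Epcam were not on this side, since both were called higher in stroma than in tumour cells in the liver (1.74 and 6.30 on the log2 scale) and Epcam also in the peritoneum (6.28). All 6 epithelial markers listed were detected in stroma, with summed levels of 1208 to 1543 CPM in liver stroma and 682 to 1086 CPM in peritoneal stroma, against 7706 to 9339 CPM and 9250 to 10848 CPM in tumour cells. The share of tumour-cell RNA in the stromal Msln signal was not tested.

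**Figure D3:**
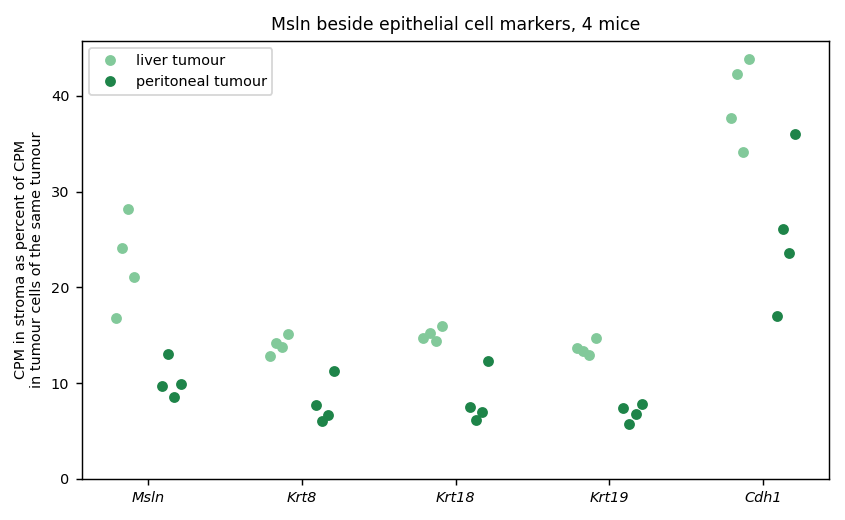
CPM in stroma as percent of the CPM in tumour cells of the same tumour (linear axis from 0) for Msln and 4 epithelial markers, with 1 point per mouse, pale for the liver and dark for the peritoneal tumour. Msln lies between 16.8% and 28.1% in liver and between 8.58% and 13.0% in peritoneum, and all 5 genes have higher percentages in liver than in peritoneum in each mouse.

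In the tumour cells, the comparison of the sites asks whether the graft itself changed with its location. Only 0.161% of 13074 genes were called higher in liver tumour cells and 0.222% higher in peritoneal tumour cells, 3 of the 10 genes could be tested and none was called. Over all genes this comparison gave 50 calls with edgeR, 2378 genes at an unadjusted p under 0.05, and 251 calls with DESeq2. None of the 10 genes was called by either tool.

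Msln measured 269, 221, 263 and 254 CPM in liver tumour cells and 406, 341, 463 and 475 CPM in peritoneal tumour cells, which did not overlap. The log2 fold change of liver over peritoneum was -0.74 (SE 0.081, adjusted p = 0.0233, edgeR), past the threshold on p and short of that on fold change, and all 4 mice had less Msln in the liver. Without mouse 2, 3 or 4 its adjusted p missed the threshold (0.101, 0.0527 and 0.119), with fold changes of -0.79, -0.73 and -0.70. Gata4 was not called in tumour cells, at 7.69, 9.50, 12.5 and 12.1 CPM in liver and 12.5, 7.55, 10.1 and 6.72 CPM in peritoneum (0.19, SE 0.24, adjusted p = 0.737, edgeR). Wt1 was 0.402 ± 0.0462 and 0.659 ± 0.407 CPM (-0.58, adjusted p = 0.513, edgeR).

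The other 7 genes were near the detection limit in tumour cells. Upk3b, Gpm6a, Lrrn4 and Tbx18 had group means between 0.0945 and 0.270 CPM, and Upk1b averaged 0.144 ± 0.0994 CPM in liver and 0.912 ± 0.649 CPM in peritoneal tumour cells. Lhx2 had no count in any peritoneal tumour library and 1 to 4 counts in each liver one, and Tcf21 had 1 count in 1 of 8 libraries. The peritoneal tumour cells of mouse 1 had the highest values of Upk3b (0.593 CPM), Gpm6a (0.250 CPM), Lrrn4 (0.624 CPM), Wt1 (1.25 CPM) and Tbx18 (0.655 CPM) in their group. The same library had the highest sum of the 10 fibroblast markers, 1541 CPM against 223 to 342 CPM in the other 3 mice, and of the 7 leukocyte markers, 194 CPM against 21.6 to 29.5 CPM. The part of stromal RNA in these low values was not tested.

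A test of the difference between the site effects, in 1 fit over the 16 sorted libraries, called 2.61% of 15331 genes with a difference above 0 and 4.06% with one below 0. The median of all genes was 0.12 on the log2 scale. Of 8 genes of the set tested, 3 were called. Gata4 gave 4.92 (SE 0.51, adjusted p = 9.41e-05, edgeR) and Msln gave 1.17 (SE 0.18, adjusted p = 0.00109, edgeR), both more tilted to the liver in stroma than in tumour cells, while Tbx18 gave -2.44 (SE 0.73, adjusted p = 0.0396, edgeR). Tbx18 missed the threshold without mouse 2 (adjusted p = 0.175) and without mouse 4 (adjusted p = 0.187), and Msln fell to 0.91, short of the fold threshold, without mouse 3. For Wt1 the difference was -0.56 (SE 0.50, adjusted p = 0.477, edgeR), so that its site effects in stroma and tumour cells were not shown to differ.

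The sorted fractions of the same tumour were compared to place each gene in one compartment or the other. In the liver 27.5% of 14620 genes were higher in stroma and 16.4% higher in tumour cells, and in the peritoneum 27.4% and 16.2% of 14584 genes, so that calls were common in general. All 8 genes of the set tested were called at both sites. Upk3b, Upk1b, Gpm6a, Lrrn4 and Tbx18 were too low in tumour cells to be tested there between sites. They entered the tests here through their stromal counts, so the filter itself favoured a call higher in stroma for them. Upk3b, Upk1b, Gpm6a, Lrrn4, Wt1 and Tbx18 were higher in stroma at both sites and Msln was lower at both, whereas Gata4 was higher in stroma in the liver and lower in stroma in the peritoneum.

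For the mesothelial genes, the log2 fold changes of stroma over tumour cells were 6.88 (SE 0.47, adjusted p = 1.57e-06, edgeR) for Upk3b, 6.94 for Lrrn4, 6.11 for Upk1b and 5.25 for Gpm6a in the liver. In the peritoneum they were 5.29 (SE 0.46, adjusted p = 3.3e-04, edgeR) for Upk3b, 5.33 for Lrrn4, 3.33 for Upk1b and 5.61 for Gpm6a. Msln gave -2.15 (SE 0.11, adjusted p = 3.07e-07, edgeR) in the liver and -3.36 (SE 0.13, adjusted p = 5.69e-05, edgeR) in the peritoneum. Upk1b and Upk3b, both higher in stroma than in tumour cells, were also expressed by the cultured BMEL WT cells.

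Among the factors, Wt1 gave 5.81 (SE 0.20) in the liver and 6.35 (SE 0.47) in the peritoneum, and Tbx18 gave 3.44 (SE 0.47) and 6.00 (SE 0.48). Gata4 gave 1.42 (SE 0.22, adjusted p = 3.54e-04, edgeR) in the liver and -3.54 (SE 0.41, adjusted p = 8.05e-04, edgeR) in the peritoneum. Stromal Gata4 stood at 179% to 479.8% of the tumour cell level in liver tumours and at 4.78% to 20.8% in peritoneal tumours. For comparison Krt8 in peritoneal stroma stood at 6.05% to 11.2% of its tumour cell level. Lhx2 averaged 0.153 CPM in peritoneal stroma, on 2 to 6 counts per library, and had no count in peritoneal tumour cells. These counts are too few to size a difference.

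**Figure D4:**
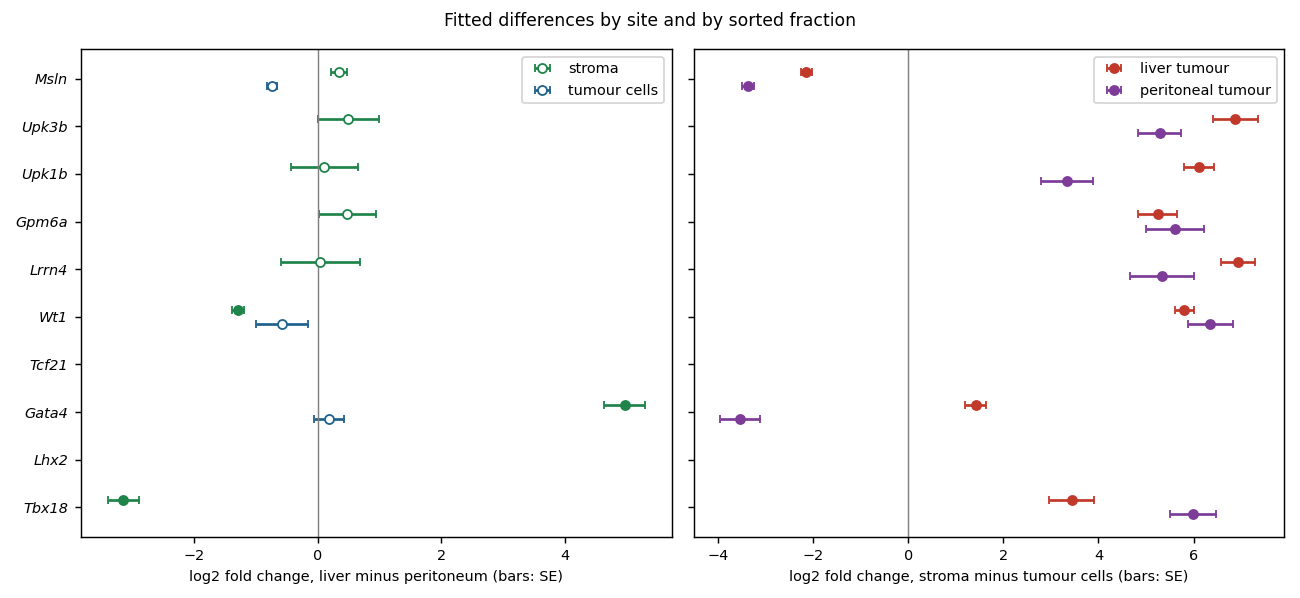
Fitted log2 fold changes (points) with standard errors (bars) of liver over peritoneum in stroma and in tumour cells (left) and of stroma over tumour cells in liver and peritoneal tumours (right), filled where called and open where not, with no point for a gene that was not tested. Gata4 lies at 4.97, Wt1 at -1.29 and Tbx18 at -3.15 in the stroma, and on the right Gata4 is the only gene of the 8 on opposite sides of 0 at the 2 sites.

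The cultured cells address the oncogene level without a host. RasLOW and RasHIGH cells are each compared with the same 3 BMEL WT libraries. A call here needed an absolute log2 fold change above 1.5 beside the adjusted p. Of the 3 BMEL WT libraries, 2 were run in another lane than all Ras libraries. In RasLOW against BMEL WT, 0.626% of 12307 genes were called higher and 2.71% lower, and of 5 genes of the set tested 1 was called, Wt1. In RasHIGH against BMEL WT, 3.71% of 12331 genes were called higher and 6.06% lower, and of 5 tested 2 were called, Wt1 and Upk3b, both lower.

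Wt1 measured 13.9, 11.9 and 12.3 CPM in BMEL WT, 2.37, 1.15 and 0.203 CPM in RasLOW and 0.189, 0.0431 and 0.271 CPM in RasHIGH cells. BMEL WT lay above both, while RasLOW and RasHIGH overlapped by 1 library. The log2 fold change was -3.39 (SE 0.67, adjusted p = 0.0312, edgeR) in RasLOW and -6.25 (SE 0.43, adjusted p = 3.11e-04, edgeR) in RasHIGH. The RasLOW call was lost when any single BMEL WT library was left out (adjusted p = 0.102, 0.0935 and 0.0896), with the fold change between -3.44 and -3.31. The third BMEL WT library, the only one that shared a lane with the Ras libraries, was at 12.3 CPM, and an effect of the lane was not tested.

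Upk3b measured 7.51, 15.2 and 22.9 CPM in BMEL WT, 1.15, 4.04 and 4.82 CPM in RasLOW and 0.114, 0.344 and 0.451 CPM in RasHIGH cells, in 3 groups that did not overlap. RasHIGH gave -5.69 (SE 0.61, adjusted p = 0.00129, edgeR). RasLOW gave -2.21 (SE 0.59, adjusted p = 0.0768, edgeR), which was not called, while DESeq2 called it (adjusted p = 0.0016). Upk1b measured 64.4, 118 and 81.0 CPM in BMEL WT, 37.2, 54.6 and 46.1 CPM in RasLOW and 30.0, 34.0 and 39.1 CPM in RasHIGH cells. Its value of -1.38 in RasHIGH (SE 0.24, adjusted p = 0.00718, edgeR) was under the fold threshold, and its value of -0.96 in RasLOW (adjusted p = 0.0721, edgeR) missed both thresholds. Without the first BMEL WT library the value in RasHIGH was -1.56 and passed.

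Msln measured 1150.4, 1322 and 1292 CPM in BMEL WT, 926, 2636 and 1371 CPM in RasLOW and 751, 555 and 772 CPM in RasHIGH cells. RasHIGH lay under both other groups, with -0.90 against BMEL WT (SE 0.16, adjusted p = 0.00832, edgeR) under the fold threshold. The RasLOW libraries spread around the control (0.37, SE 0.37, adjusted p = 0.636, edgeR), and without the second of them the value was -0.17. Gata4 lay between 9.29 and 18.2 CPM in all 9 cultured libraries and was not called in RasLOW (-0.16, adjusted p = 0.747, edgeR) or RasHIGH (-0.36, adjusted p = 0.355, edgeR).

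The remaining genes were scarce in culture. Gpm6a measured 0.105, 3.68 and 3.77 CPM in BMEL WT and had at most 3 counts in a RasLOW library and none in any RasHIGH library, which puts the RasHIGH mean at least 18.6-fold lower by the limit of 3 counts per library. Tbx18 measured 4.54, 0.241 and 0.259 CPM in BMEL WT, so that its mean rested on the first library, which was also the one with little Gpm6a. Lrrn4 stayed at or under 0.344 CPM in all 9 libraries and Lhx2 at or under 0.276 CPM, and Tcf21 had no count in any of them.

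Between RasHIGH and RasLOW, 0.0585% of 11962 genes were called higher and 0.0167% lower, 9 genes in all with edgeR, against 1170 genes at an unadjusted p under 0.05 and 255 calls with DESeq2. Of 4 genes of the set tested none was called by edgeR. Upk3b gave -3.46 (SE 0.73, adjusted p = 0.158, edgeR) with groups that did not overlap, and it was the 1 gene of the set that DESeq2 called (adjusted p = 3.72e-04). Msln gave -1.25 (SE 0.39, adjusted p = 0.318, edgeR).

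The order of the 7 groups differed by gene. Wt1 ran from peritoneal stroma through liver stroma, BMEL WT, RasLOW, peritoneal tumour cells and liver tumour cells to RasHIGH, and the first 3 groups stood clear of all others. RasLOW, with values from 0.203 to 2.37 CPM, overlapped with both groups of tumour cells and with RasHIGH, and the tumour cells of the 2 sites overlapped with each other. Gata4 ran from liver stroma through BMEL WT, RasLOW, RasHIGH, liver and peritoneal tumour cells to peritoneal stroma, and the 5 groups of BMEL-derived cells overlapped with their neighbours while both stromal groups stood clear. For Upk3b, BMEL WT, liver stroma and peritoneal stroma overlapped at the top, at 15.2 ± 7.70, 14.6 ± 8.57 and 9.42 ± 4.74 CPM.

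Further genes of the same kinds were read from fixed lists to set the 10 genes in context. Of 10 further mesothelial genes 9 were tested between the stromal sites, with a median log2 fold change of -0.37 beside 0.02 over all genes. None was called higher in liver and 2 were called higher in peritoneum: Pdpn, the podoplanin of mesothelium, lymphatics and fibroblasts, at 14.0 ± 10.5 against 121 ± 40.6 CPM (-3.33, SE 0.27, adjusted p = 3e-04, edgeR), and Prg4, the lubricin of serosal surfaces and joints, at 41.5 ± 22.5 against 99.9 ± 46.9 CPM (-1.36, SE 0.28, adjusted p = 0.0102, edgeR). Prg4 overlapped between sites and was lower in the liver of all 4 mice. Without mouse 3 the number of these genes called was 4 and without mouse 4 it was 1, and with DESeq2 it was 4. In the liver 8 of 9 and in the peritoneum 7 of 8 tested were higher in stroma than in tumour cells, beside 27.5% and 27.4% of all genes. Only 3 of the list had enough counts to be tested between tumour cells of the sites. Most of them thus entered the tests of stroma against tumour cells through their stromal counts, and the filter itself favoured a call higher in stroma. Bnc1, a zinc finger factor of mesothelium and keratinocytes, was lower in stroma at both sites (-1.93 and -2.81), on the same side as Msln.

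Of 16 further position factors, all tested between the stromal sites, 1 was called higher in liver and 4 higher in peritoneum, with a median of -0.05. Tbx20, a T-box factor of heart and mesenchyme, was higher in liver stroma, at 7.37 ± 3.74 against 0.858 ± 0.247 CPM (2.89, SE 0.49, adjusted p = 0.00528, edgeR). Tbx3, a T-box factor of limb and body wall, was higher in peritoneal stroma, at 14.9 ± 2.39 against 0.947 ± 0.408 CPM (-4.03, SE 0.29, adjusted p = 1.74e-04, edgeR). The mesenchymal factors Prrx1 (-3.25), Osr1 (-2.75) and Twist1 (-2.71) were also higher in peritoneum. T-box genes thus lay on both sides, with Tbx18 and Tbx3 higher in peritoneum and Tbx20 in liver.

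Of 11 cofactors of the member factors, all tested, 1 was called: Zfpm2, the partner of GATA factors also known as Fog2, was lower in liver stroma, at 5.92 ± 1.07 against 15.1 ± 3.74 CPM (-1.38, SE 0.16, adjusted p = 0.00113, edgeR), opposite in direction to Gata4. Tcf12, a dimer partner of Tcf21, was 76.7 ± 3.70 against 97.7 ± 5.38 CPM (-0.40, adjusted p = 0.00318, edgeR), under the fold threshold, and Ldb1, the partner of LIM factors, was 122 ± 3.82 against 113 ± 2.20 CPM (0.07, adjusted p = 0.394, edgeR). The 4 other uroplakins were too low for the test in stroma. Upk1a averaged 0.382 and 0.219 CPM in liver and peritoneal stroma, Upk3a had no count in any library, Upk2 was seen only in liver stroma, at 0.0328 CPM on average, and Upk3bl, a relative of Upk3b, averaged 1.03 and 1.07 CPM in tumour cells of liver and peritoneum and 0.170 and 0.0214 CPM in stroma, opposite to Upk3b.

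Retinoid genes are of interest because mesothelium and stellate cells make and store retinoids. Of 17 listed 16 were tested between the stromal sites, with 2 called higher in liver and 6 higher in peritoneum. Among the most abundant of these were Rdh10, a retinol dehydrogenase (29.3 ± 1.87 in liver against 67.5 ± 18.4 CPM in peritoneum), Aldh1a3, a retinaldehyde dehydrogenase (14.7 ± 5.90 against 48.6 ± 6.63 CPM), and Cyp26b1, an enzyme that degrades retinoic acid and that was higher in liver (42.0 ± 6.78 against 19.0 ± 4.67 CPM). Aldh1a2, the retinaldehyde dehydrogenase of mesothelium, was not called between sites, at 66.7 ± 11.9 and 73.2 ± 27.0 CPM (-0.12, SE 0.30, adjusted p = 0.789, edgeR) and higher in stroma than in tumour cells at both sites (6.96 and 6.05).

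All 10 fibroblast markers were called higher in peritoneal stroma, with a median of -3.26, and their summed level was 4198 to 8446 CPM in liver stroma and 55301 to 83692 CPM in peritoneal stroma. Col3a1, Col1a1, Col1a2 and Postn, which encode collagen chains and a matrix protein, led the list by level. Of 8 hepatic stellate cell markers tested, 4 were called higher in peritoneum (Cygb, Rgs5, Pth1r and Reln) and none in liver, whereas Lrat, the enzyme that esterifies retinol in stellate cells, was near the limit at 0.753 ± 0.638 and 0.125 ± 0.133 CPM and was not tested. Of 5 smooth muscle markers 2 were called higher in peritoneum (Acta2 and Myh11), and of 7 leukocyte, 6 epithelial, 4 Schwann or neural, 2 pancreatic acinar and 1 adipocyte markers tested none was called. Wt1 and Tbx18 moved in the direction of the fibroblast markers and Gata4 in that of the hepatocyte markers and of Stab2 and Kdr, though not of Emcn and Lyve1, and the part of cell composition in these differences was not tested.

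**Figure D5:**
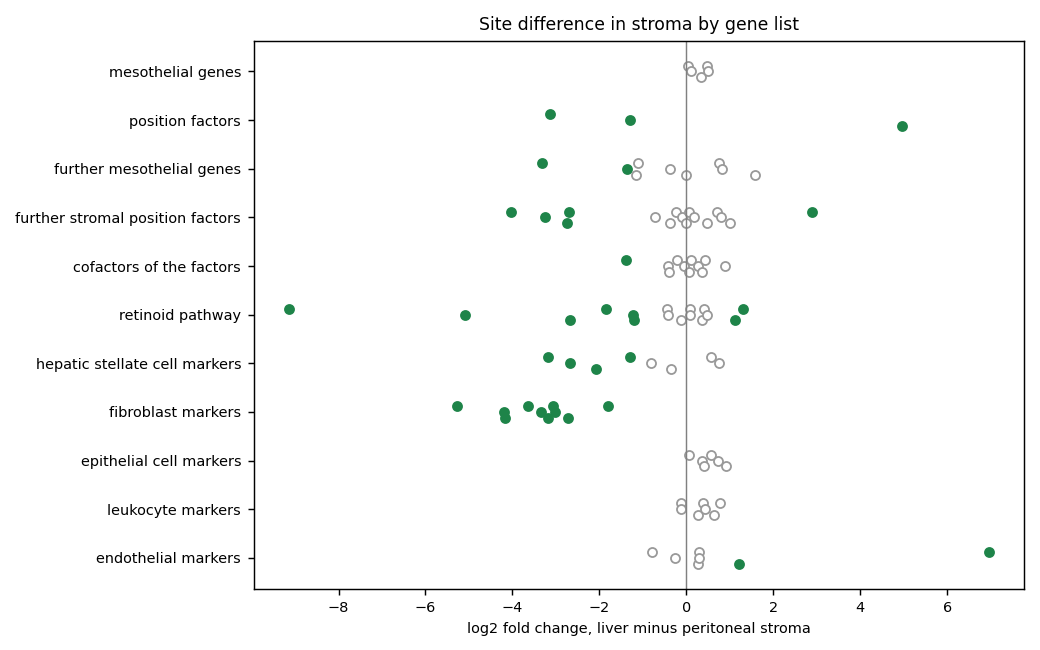
Log2 fold change of liver over peritoneal stroma for each gene tested, by list, filled green where called and open grey where not (vertical offsets within a list only separate points). All 5 mesothelial genes of the set are open and between 0.04 and 0.50, the 3 tested position factors are filled at 4.97, -1.29 and -3.15, and the 10 fibroblast markers are all filled below 0.

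Between stroma and tumour cells, 9 of 16 further position factors were higher in stroma at either site, with 5 lower in the liver and 4 in the peritoneum. Of retinoid genes, 6 of 15 tested were higher and 3 lower in liver stroma and 11 of 16 higher and 1 lower in peritoneal stroma, and of 11 cofactors 3 and 4 were higher and 2 and 3 lower. All fibroblast, leukocyte and stellate cell markers tested were higher in stroma at both sites. Of the stellate cell markers only 3 had enough counts to be tested between tumour cells of the sites. For the others the filter itself favoured a call higher in stroma. Over all genes tested, 27.5% in the liver and 27.4% in the peritoneum were higher in stroma, and 16.4% and 16.2% were higher in tumour cells. Between tumour cells of the sites no gene of the mesothelial, position factor, cofactor, uroplakin or retinoid lists was called, while the fibroblast marker Postn was higher in peritoneum (-4.89) and the hepatocyte markers Alb, Fga and Fgb were higher in liver.

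Of the further position factors, 12 had enough counts for the test in each of the comparisons with BMEL WT. Cultured RasHIGH cells had 1 call above BMEL WT (Nr2f1, 1.82) and 3 below (Osr1, -1.73, Tbx2, -2.76, and Tbx3, -2.89), and RasLOW cells had 1 below (Tbx2, -2.71). Over all genes tested, 3.71% were called higher and 6.06% lower in RasHIGH, and 0.626% and 2.71% in RasLOW. Of the 10 further mesothelial genes only 2 could be tested in RasHIGH and 3 in RasLOW, and Nkain4 (-2.29 in RasHIGH) was the only one called. Of the retinoid genes 10 could be tested in each. Retinoid genes called in RasHIGH were Rbp4, a retinol carrier of plasma (2.47), Aldh1a1 (-2.73), Stra6 (-6.09) and Cyp26b1 (-5.32), of which Rbp4 (2.02), Aldh1a1 (-2.98) and Cyp26b1 (-2.68) were called in RasLOW as well. Of the cell type markers with enough counts for the test, Apoa1 was lower in RasLOW (-3.16), and in RasHIGH Col1a1 (-3.52), Apoa1 (-4.31) and Csf1r (-2.38) were lower and Cdh5 (6.78), Cidec (3.82), Plin4 (5.64) and Cela1 (2.54) higher. Both comparisons share their control libraries.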

How the data were processed

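The authors prepared mRNA libraries and aligned reads with TopHat2 to mm9, and they deposited raw counts per gene, not normalized, with 1 column per library. The submitters' processing notes name Bowtie 0.12.2, FastQC and the builds mm8 and mm10. The counting program, its strand setting and the annotation are not given in the sources used here. All 25 columns were matched to samples by library identifier, and totals ran from 20818989 to 51241336 counts. Genes of the set and lists were chosen with earlier results of these data known.

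Counts were tested in R 4.3.3 with edgeR 4.0.16 (limma 3.58.1): filterByExpr (minimum count 10), TMM, quasi-likelihood F-test, Benjamini-Hochberg adjustment over all genes tested. Each comparison used its own groups. A call needed an adjusted p under 0.05 and an absolute log2 fold change above 1 (sorted cells, mouse as block) or 1.5 (cell lines). The fold thresholds are those of the study, whose unadjusted p (0.05 and 0.01) was an alternative, as were RLE factors, total counts, no filter, DESeq2 1.42.0, the other use of the block and leaving out each mouse or library. Sorted libraries are paired because the labels give the same mouse. Deviations of paired libraries from their group means correlated with a mean r of 0.20 in stroma and -0.04 in tumour cells. On simulated counts the test recovered 200 of 200 changed genes with 1 false call for the stromal sites among 13963 genes, 198 of 200 with 7 false calls for the difference of site effects among 13959, and 195 of 200 with 0 for RasHIGH against BMEL WT among 11632. In the simulation all genes shared 1 dispersion and genes with few counts were left out. The planted changes had 1 fixed size above the fold thresholds. Recovery of smaller changes, of scarce genes or under the real spread was therefore not tested.

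Named were all 10 genes. For each list, every called gene was named where these were 6 or fewer, otherwise the 4 with the highest mean CPM, plus Gata6, Muc16, Zfpm2, Aldh1a2, Tcf12 and Ldb1. Between sorted fractions and in the test of the difference the lists are given only as counts, where at all, with Aldh1a2 and Bnc1 named. Muc16 is not analysed here. The result of 1 gene named by this rule is not reported here. Likeness to Upk3b, Wt1 and Lhx2 (the 3 genes outside the lists with the highest r, mean of at least 1 CPM) used log2(CPM + 1) with a pseudocount of 1. Gene positions and merged exon lengths came from GENCODE vM1 on mm9, and promoters from RefSeq (GRCm38.p6, 250 bases before to 50 after a start) were placed on mm9 by exact match.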

Additional observations from a re-analysis of the deposited data

Results flagged for a closer look

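Among 38 groups of 4 libraries, 3 had a single library separated from the others by Dixon's ratio, where about 1 in 20 would be so by chance. Gata4 in liver stroma was 45.6 CPM in mouse 2 and 21.7 to 24.2 CPM in the other 3, and the endothelial marker sum of that library, 1132 CPM, was also the highest of its group. That sum includes Cdh5, which tumour cells also expressed, and a link to Gata4 was not tested. Tbx18 in peritoneal tumour cells was 0.655 CPM in mouse 1 and 0.0738 to 0.163 CPM in the other 3, beside the highest fibroblast marker sum of the group. Tcf21 in liver tumour cells was 0.0283 CPM in mouse 2, which is 1 count, and 0 in the others.

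For 3 genes the site difference in stroma differed from that in tumour cells by the test of the difference itself (edgeR, log2 scale). These were Gata4 (4.92, adjusted p = 9.41e-05), Msln (1.17, adjusted p = 0.00109) and Tbx18 (-2.44, adjusted p = 0.0396). Values of all 4 mice were higher in liver stroma for Gata4 and Msln and lower for Tbx18. In tumour cells all 4 mice had less Msln in the liver, and 3 of 4 had more Gata4 there. Tbx18 was too low in tumour cells to be tested alone, with 24 counts in all at the liver and 36 at the peritoneum. The call of Tbx18 in the test of the difference was lost in 2 alternatives and that of Msln in 1.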

How the results depend on the processing

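Over all alternatives 1003 values were counted as unchanged, and 45 moved, 7 reversed, 9 gained and 6 lost a call. For a log2 fold change, unchanged means that direction and side of the threshold were kept. Numbers of called genes and group means of CPM were counted as unchanged within a set margin, without regard to direction or threshold. The 1003 therefore do not measure how stable the calls were. The calls of the genes of the set between stromal sites and between fractions were the same in number under every alternative run, 3, 8 and 8. The causes of the changes below were not tested.

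Between tumour cells of the sites, 50 genes called became 130 without a filter, 251 with DESeq2, 374 with the unadjusted p and 150 without the replicate block by mouse, and 0 to 254 when a mouse was left out. For the difference of site effects 1022 became 1615 with the unadjusted p and 588 to 1112 when a mouse was left out. For RasLOW against BMEL WT, 411 became 235 with a replicate block and 134 to 756 without 1 library, and the 1 gene of the set became 3 without a filter, 2 each with DESeq2, the unadjusted p or the block, and 0 to 1 without 1 library. For RasHIGH against BMEL WT the 2 genes of the set became 4 without a filter and 2 to 4 without 1 library. For RasHIGH against RasLOW, 9 became 74 without a filter, 255 with DESeq2, 253 with the unadjusted p, 0 with the block and 0 to 16 without 1 library, and the 0 genes of the set became 1 with DESeq2 and 1 with the unadjusted p. Numbers of cultured replicates name no shared origin, and the mean correlations of same-numbered libraries were -0.13, 0.06 and -0.30.

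Leaving out a mouse turned the sign of stromal log2 fold changes that were not called, with ranges of -0.088 to 0.99 for Upk3b, -0.54 to 0.61 for Upk1b and -0.69 to 0.68 for Lrrn4, the lowest without mouse 3. In tumour cells Gata4 ran from -0.044 (without mouse 4) to 0.49, and the difference for Gpm6a from -1.57 to 0.51 (without mouse 3). In RasLOW, Msln ran from -0.17 (without the second RasLOW library) to 0.67 and Gata4 from -0.30 to 0.047 (without the first BMEL WT library). In the test of the difference, Upk1b was called with DESeq2 (3.23, adjusted p = 0.0256) and with the unadjusted p. Counts limit Tcf21 and Lhx2, which had at most 35 in a library.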
